A study of Mus musculus with 19 samples.

Results

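A set of 40 macrophage and monocyte genes, out of 18193 genes named on the arrays, was followed in fat and in pancreatic lymph nodes (PLNs) of female NOD mice, an inbred line that develops autoimmune diabetes spontaneously. The genes were listed as genes of the lineage with earlier results of these data known, so the list is not independent of them. Each is represented by 1 probe set per tissue, the one with the highest mean log2 signal over the arrays of that tissue. All 40 had a probe set, 17 had several, and for 6 the chosen probe set differed between the tissues. The 19 Affymetrix arrays hold fat of normal (NOR, 2 arrays), diabetic (DIA, 2), AAT treated (AAT, 2) and Power Mix treated (PM, 3) mice, and PLNs of NOR (4), DIA (2) and AAT (4) mice. AAT is alpha1 antitrypsin, a serum inhibitor of serine proteases, and the Power Mix joins IL2.Ig, an antagonist-type mutant IL15.Ig and rapamycin. The strain is given on every label as NOD (NOD/LtJx), and no age or time is given for single arrays. Nothing in the labels ties an array to a mouse of its own, so that the p-values speak of the scatter among these samples, which may be technical.

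Macrophages arise from circulating monocytes or from precursors seeded before birth. CSF1, acting through its receptor CSF1R, keeps the lineage alive, and PU.1 (the product of Spi1) is a transcription factor of the lineage. They engulf debris through scavenger and lectin receptors, bind immune complexes through Fc receptors that signal by ITAM adaptors, make the C1q subunits of complement, and degrade what they take up in lysosomes. In adipose tissue they are known to gather around stressed adipocytes, and in lymph nodes they line the sinuses, where they filter lymph. These are bulk tissue arrays, so a change in the number of macrophages and a change in RNA per cell cannot be told apart.

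Signals are linear intensities, scaled to the same trimmed mean on every array. Log2 changes are given relative to the median change of all 45037 probe sets tested, which was -0.11 for DIA vs NOR, -0.05 for AAT vs DIA and 0.15 for PM vs DIA in fat, and -0.11 for DIA vs NOR, -0.58 for AAT vs DIA and -0.72 for AAT vs NOR in PLNs. A member rose or fell where it passed the thresholds of the study, a fold change over 2 with an unadjusted p of at most 0.05, both taken on the change as measured; limma p-values adjusted over all probe sets are given beside it. Adipocyte markers (6 of 8 listed genes measured) summed to signals of 175785 to 458973 in fat, and T cell markers (6 of 8 measured) to 15260 to 32118 in PLNs against 627 to 1991 in fat. The array PLN AAT 3 stood apart by its pancreatic acinar markers, which summed to 102870 against 163 to 6190 on the other PLN arrays. Chosen probe sets of Trem2, Marco, Timd4, Siglec1 and Itgam in fat, and of Trem2 in PLNs, had mean signals under the 40th percentile of all probe sets, and their changes carry large standard errors (SE).

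Promoter sequence was at hand for 30 of the 40 members, as 34 entries of RefSeq on the mouse build GRCm38.p6. The core bound by PU.1 and other ETS factors, GAGGAA on either strand (TTCCTC on the reverse strand), was found in the 250 bases before the start site in 13 of 34 member entries (38.2%) and in 7639 of 32851 entries overall (23.3%). The ETS-IRF composite element (EICE), which PU.1 binds together with IRF factors, was searched on both strands and may overlap the ETS core; it was found in 3 member entries (8.82%) against 756 overall (2.30%). The 4 sequences below belong to members that were among the most raised in diabetic fat and have a single promoter entry. They were taken in order of that rise and not by motif. The C1qc and Laptm5 entries hold GAGGAA on the reverse strand, in capitals, and the Ly86 and Ccr2 entries hold it on neither strand. The shorter ETS core GGAA was not searched or marked.
Laptm5, chr4:130913066-130913315, plus strand: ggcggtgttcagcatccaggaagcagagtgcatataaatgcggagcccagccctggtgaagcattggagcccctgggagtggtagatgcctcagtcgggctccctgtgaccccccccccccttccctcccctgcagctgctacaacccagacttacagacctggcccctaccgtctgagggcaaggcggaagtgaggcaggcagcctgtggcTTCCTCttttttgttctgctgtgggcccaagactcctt
C1qc, chr4:136892915-136893164, minus strand: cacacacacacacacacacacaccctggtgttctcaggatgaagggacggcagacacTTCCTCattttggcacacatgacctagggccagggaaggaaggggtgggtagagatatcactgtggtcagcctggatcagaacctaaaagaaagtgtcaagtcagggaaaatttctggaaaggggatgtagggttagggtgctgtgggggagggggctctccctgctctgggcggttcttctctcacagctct
Ly86, chr13:37345095-37345344, plus strand: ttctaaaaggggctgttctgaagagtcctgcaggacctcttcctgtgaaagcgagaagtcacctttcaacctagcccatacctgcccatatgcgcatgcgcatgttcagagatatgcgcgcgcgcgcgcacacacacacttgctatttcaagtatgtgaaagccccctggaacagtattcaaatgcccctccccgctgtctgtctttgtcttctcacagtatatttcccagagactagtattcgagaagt
Ccr2, chr9:124101933-124102182, plus strand: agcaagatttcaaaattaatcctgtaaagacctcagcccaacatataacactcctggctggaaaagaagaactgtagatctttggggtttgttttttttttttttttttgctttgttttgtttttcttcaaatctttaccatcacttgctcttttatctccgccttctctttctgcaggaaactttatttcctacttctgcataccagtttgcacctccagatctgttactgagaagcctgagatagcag
The match lies at positions -38 to -33 before the start of Laptm5 and at -193 to -188 before that of C1qc, in both cases on the strand opposite to the gene. A match describes letters in this window and says nothing of binding.

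In fat of diabetic mice, 11 of the 40 members rose against NOR and none fell, while 3.79% of all probe sets rose and 3.88% fell. The 11 were 2 subunits of C1q (C1qb, C1qc), the receptor Csf1r, the lectin receptors Mrc1 and Clec10a, the chemokine receptor Ccr2, the lysosomal or effector genes Mpeg1, Ctss, Laptm5 and Ly86, and the actin regulator Coro1a. Over all 40 members the median change was 0.70, and 30 lay above the median of all probe sets. Both DIA arrays were above both NOR arrays in 18 members and below in 3, where 18% and 23.2% of all probe sets did so. None of the 40 was called at an adjusted p under 0.05 by limma, where 0% of probe sets were called; 11 had an unadjusted p under 0.05, and the smallest adjusted p was 0.143, for Laptm5. A rank product test at the same thresholds passed 12 members, 8 of the 11 among them. It passed 2645 of all 45037 probe sets upwards and 2666 downwards.

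Laptm5, a lysosomal membrane protein of blood cells, gave signals of 872 and 1126 in NOR and 5178 and 5500 in DIA. Clec10a, a galactose-type lectin of macrophages and dendritic cells, gave 407 and 540 in NOR and 3376 and 3190 in DIA. Csf1r gave 1566 and 1680 in NOR and 5460 and 7004 in DIA. In these 3 genes the arrays of each group lay close together and the groups were far apart. The changes were 2.54 ± 0.33 (SE) for Laptm5, 2.91 ± 0.54 for Clec10a and 2.04 ± 0.47 for Csf1r, or 5.39-fold, 7.0-fold and 3.81-fold as measured, with adjusted p of 0.143, 0.388 and 0.411 by limma.

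Coro1a, an actin-binding protein of leukocytes, gave 253 and 191 in NOR and 968 and 1510 in DIA, a change of 2.57 ± 0.40. Ly86, which encodes the RP105-associated protein MD-1, gave 46.1 and 162 in NOR and 700 and 898 in DIA, a change of 3.30 ± 0.56. Ctss, the lysosomal protease cathepsin S, gave 938 and 816 in NOR and 1757 and 3577 in DIA, a change of 1.63 ± 0.38. Mpeg1, a pore-forming protein of phagocytes, was level within DIA, at 831 and 866, against 207 and 420 in NOR, a change of 1.63 ± 0.48.

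The DIA arrays agreed less in the remaining raised members, where DIA 2 was far above DIA 1. C1qb gave 766 and 1359 in NOR and 2896 and 7560 in DIA, a change of 2.30 ± 0.44. C1qc gave 112 and 334 in NOR and 509 and 1725 in DIA, a change of 2.38 ± 0.60. The mannose receptor Mrc1, which takes up glycoproteins, gave 547 and 493 in NOR and 872 and 2400 in DIA, a change of 1.58 ± 0.48. Ccr2, the receptor by which monocytes leave the marrow and follow CCL2, gave 29.7 and 217 in NOR and 256 and 644 in DIA, a change of 2.44 ± 0.84 with the widest spread of the 11. Over all members DIA 2 was above DIA 1 in 33 of 40, by a median of 0.54 on the log2 scale. This was not counted over all probe sets, whose median signal was 228 on DIA 1 and 201 on DIA 2.

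**Figure D1:**
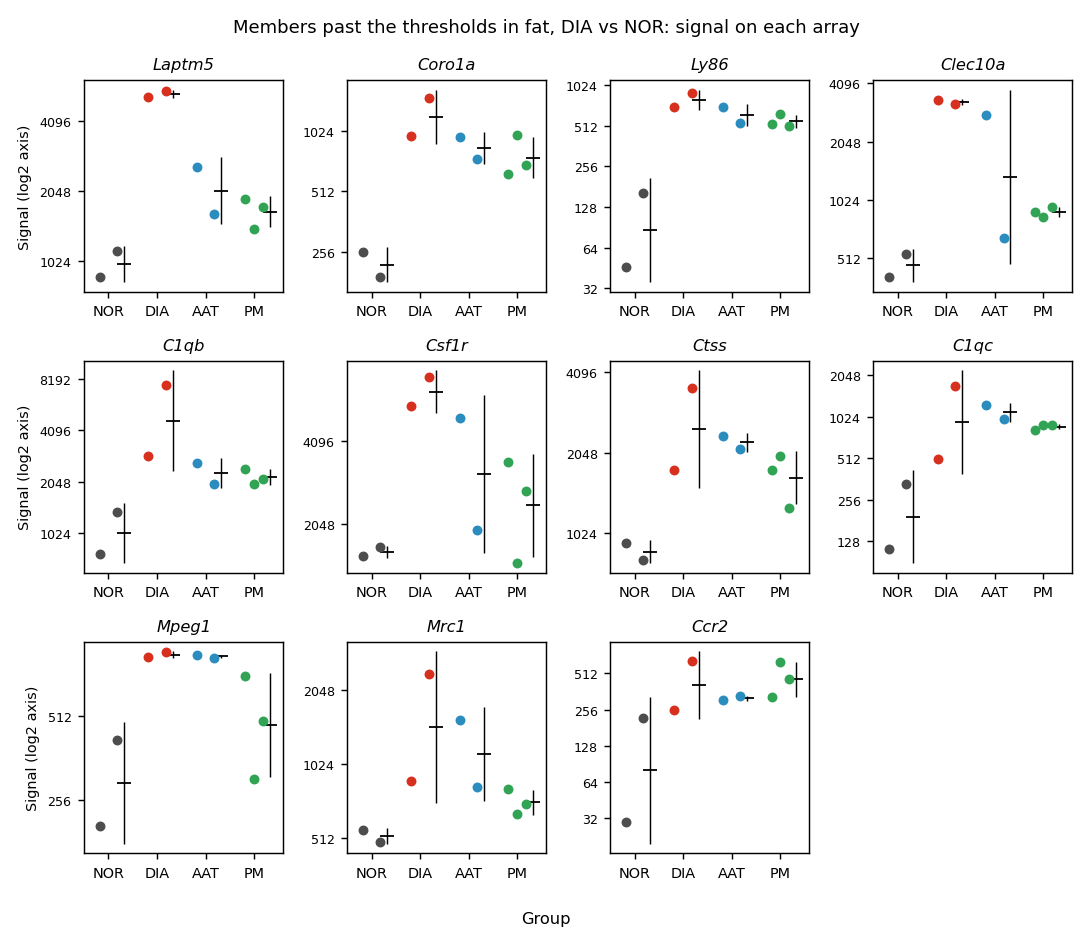
Signal (linear intensity on a log2 axis) of the 11 members that rose in fat of DIA against NOR mice; points are arrays, and the black bar is the mean of the log2 signals with its SD. Both DIA arrays lie above both NOR arrays in all 11 panels, and the PM arrays of Laptm5 and Clec10a lie between the 2 groups.

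The other members of each role group moved less or within the spread of their arrays. C1qa, the third chain of C1q, gave 571 and 3561 on the DIA arrays, and its change of 1.18 ± 0.67 did not pass. Csf1, the growth factor itself, stayed between 501 and 751 in NOR and DIA, with a change of -0.18 ± 0.43, while its receptor rose. The lineage transcription factors Spi1 (0.37 ± 0.56) and Irf8 (0.81 ± 0.54) did not pass, nor did any of the 6 Fc receptor and ITAM genes, Fcgr1, Fcgr2b, Fcgr3, Fcer1g, Tyrobp and Trem2, whose changes ran from -1.90 (Trem2, a dim probe set) to 0.86 (Tyrobp) with a median of 0.11.

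Of the 10 scavenger and uptake receptors, Mrc1 and Clec10a rose, and Cd68, Msr1, Marco, Cd163, Folr2, Timd4, Siglec1 and Cd14 did not pass; Cd163, the haemoglobin scavenger receptor, gave 2408 on DIA 1 and 80.1 on DIA 2, so the 2 arrays lay on either side of NOR. Among adhesion and chemokine receptors Ccr2 rose, and Itgam, Itgax, Cx3cr1 and Adgre1 (which encodes F4/80) ran from -1.51 to 0.54. All 7 lysosomal and effector genes and all 5 oxidase and actin genes lay above the median of all probe sets; Lyz2 (0.80), Lgals3 (0.73) and Gpnmb (0.14), and the oxidase subunits Cybb (1.10), Ncf4 (0.98) and Ncf1 (0.48) with Aif1 (0.57), did not pass.

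**Figure D2:**
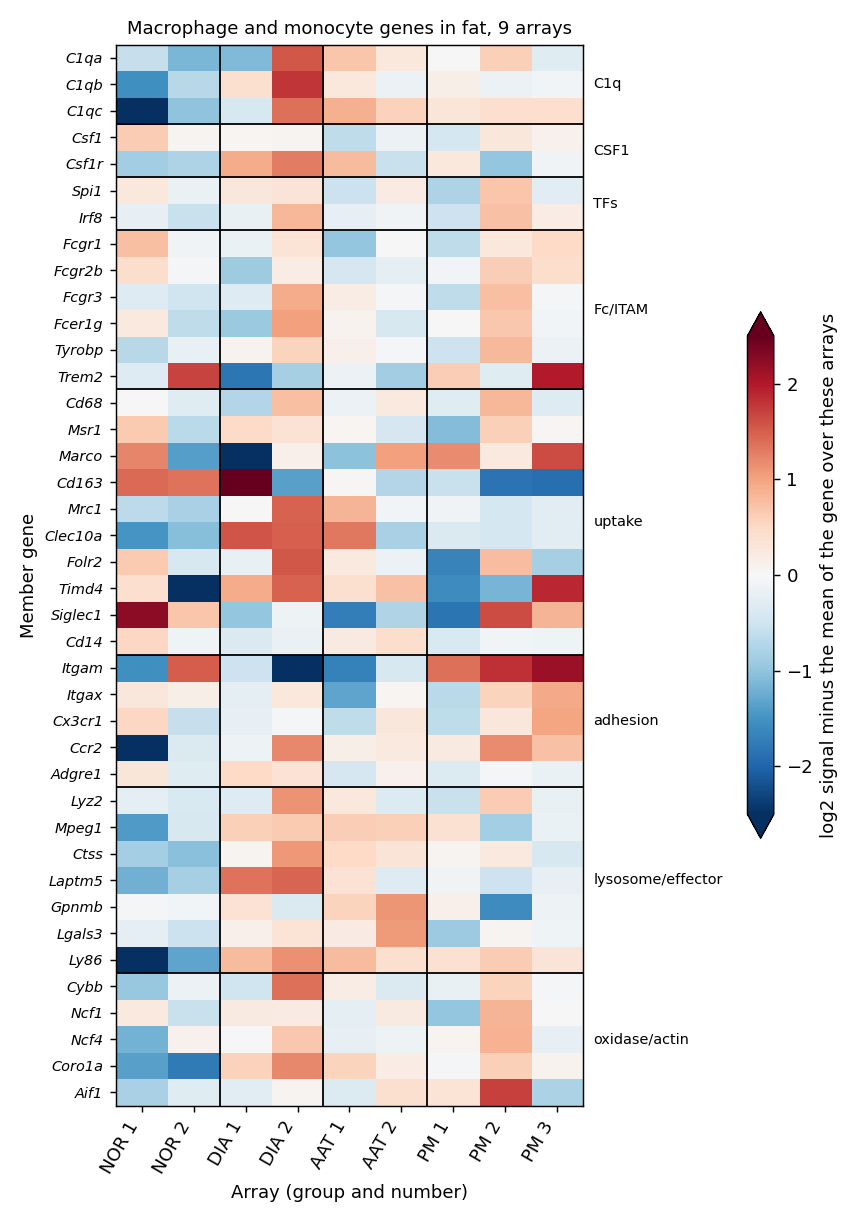
Log2 signal of the 40 members on the 9 fat arrays, each row minus its mean, with rows grouped by role and columns by group. The rows of Laptm5, Ly86, Coro1a and Clec10a are below their mean on both NOR arrays and above it on both DIA arrays, and DIA 2 and PM 2 are the columns with the highest median member.

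The integrity of the RNA, read from the control probe sets, moved with the groups. The 3' to 5' ratio of actin was 3.63 and 4.30 on the NOR arrays of fat, 15.2 and 15.5 on the DIA arrays, 5.87 and 9.08 in AAT and 3.35 to 6.32 in PM, so that DIA did not overlap any other group. With the log2 of this ratio as a covariate in the fit, 2 of the 11 rises passed (Coro1a 2.56, Ctss 1.52). Csf1r turned to -1.37, Mpeg1 to -0.81 and Mrc1 to -0.21, and the median of the 40 members was 0.89. In this fit 8 members passed, where 2206 of 45037 probe sets rose and 2428 fell. The median SE over all probe sets was 1.74, against 0.78 without the covariate. The ratio and the DIA group can hardly be separated in this fit, as DIA overlapped no other group. Erythroid and platelet markers fell in 3 of 6 measured genes, from a summed signal of 9346 to 10195 in NOR to 3224 to 3973 in DIA, and matrix markers, of which 1 of 8 rose, summed to 41388 to 42554 in NOR and 47057 to 86143 in DIA; the part of these in the macrophage result was not tested.

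Single arrays and probe sets mattered for some of the 11. Mrc1 (0.77) and Ccr2 (1.69) did not pass without DIA 2, and Ccr2 (0.88) and Mpeg1 (1.00) did not pass without NOR 1. The median of the 40 members was 0.36 without DIA 2 and 1.25 without DIA 1. For C1qb (1.96), Csf1r (2.08) and Coro1a (1.83), with 3 probe sets each, a further probe set rose as well. The 4 other probe sets of Laptm5 gave 1.03, 1.03, -0.43 and -0.31 and those of Ccr2 1.21, -0.27 and -1.24, none of which passed. As the mean over the probe sets of a gene, 8 of the 11 passed, and Laptm5, Ccr2 and Coro1a did not.

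Against DIA, 3 members fell in fat of AAT treated mice and none rose, where 1.82% of all probe sets fell and 2.03% rose. Laptm5 gave 2596 and 1619 under AAT, a change of -1.33 ± 0.33 from DIA, and both AAT arrays lay between NOR and DIA. Clec10a gave 2806 and 648, with AAT 1 near DIA and AAT 2 near NOR, and a change of -1.23 ± 0.54. C1qb gave 2641 and 1986, both under the 2 DIA arrays, and changed by -0.98 ± 0.44. No member was called at the adjusted p by limma (0% of probe sets; smallest adjusted p 0.859; 3 members at an unadjusted p under 0.05). The median of the members was -0.32, with 28 of 40 under the median of all probe sets; both AAT arrays were below both DIA arrays in 11 members and above in 2, against 17.7% and 14.9% of all probe sets.

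The AAT result leaned on single arrays. Without DIA 2 the median of the members was 0.14, above the median of all probe sets, and without DIA 1 it was -0.68 with 6 members fallen. Without AAT 2 only Laptm5 fell, and Clec10a changed by -0.07. C1qb (-0.22) and Clec10a (-1.20) did not pass without DIA 2, nor did C1qb (-0.67) without AAT 2 or Clec10a (-1.23) without DIA 1. None of the 3 passed with the actin ratio as a covariate, where Clec10a turned to 0.23, and the mean over the probe sets of Laptm5 and of C1qb did not pass. The median SE over all probe sets was 1.11 with this covariate and 0.78 without it. Because the DIA arrays enter both comparisons, a high DIA signal raises one change and lowers the other, and the AAT arrays are therefore also set against NOR below.

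Against DIA, 6 members fell in fat of PM treated mice and 1 rose, where 3.09% of all probe sets fell and 4.6% rose. Laptm5 gave 1891, 1402 and 1739 under PM, a change of -1.83 ± 0.30. Clec10a gave 884, 831 and 941, a change of -2.04 ± 0.49. Csf1r gave 3426, 1475 and 2692, a change of -1.52 ± 0.43. In these 3 members every PM array was below both DIA arrays, and the PM arrays of Clec10a differed little from one another.

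C1qb, at 2444, 1990 and 2110, changed by -1.25 ± 0.40, and Mrc1, at 809, 636 and 704, by -1.17 ± 0.44, both below the 2 DIA arrays. Cd163 fell by 2.68 ± 1.11, but its PM arrays of 138, 57.0 and 55.5 enclosed the DIA 2 signal, and the call rests on DIA 1: without it the change was -0.25, and it did not pass in 7 of the 9 fits that left out 1 array. Itgam, the CD11b chain of the complement receptor CR3, rose by 3.26 ± 1.18 from 17.7 and 3.82 in DIA to 65.4, 89.4 and 113 in PM, all of them dim signals. None of the 40 was called at the adjusted p by limma (0% of probe sets; smallest adjusted p 0.268; 7 at an unadjusted p under 0.05).

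Over all members the median was -0.42, and all arrays of PM were below those of DIA in 9 members and above in 3, against 11.7% and 18.3% of all probe sets. Without DIA 2 the median was 0.01, and C1qb (-0.48), Csf1r (-1.26), Mrc1 (-0.35) and Itgam (2.24) did not pass; Mrc1 did not without PM 2 or PM 3 (-1.15) either, and without DIA 1, 11 members passed, 10 of them fallen. With the actin ratio as a covariate none of the 7 passed, and Csf1r turned to 1.24, Mrc1 to 0.27, Clec10a to 0.21 and C1qb to 0.02. The median SE over all probe sets was 1.46 with this covariate and 0.71 without it. Matrix markers fell with the members: 5 of 8 passed, and their summed signal was 26391 to 34667 in PM against 47057 to 86143 in DIA. The part of the matrix markers in the macrophage result was not tested.

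Set against normal fat, treated fat still held several members at higher signals. In AAT fat 11 members rose and 1 fell, where 2.23% of all probe sets rose and 2.33% fell, and the median of the members was 0.44. Both AAT arrays were above both NOR arrays in 16 members and below in 5, against 12.9% and 18% of probe sets. Ly86 gave 704 and 536 under AAT, a change of 2.96 ± 0.56 from NOR, C1qc gave 1241 and 991, a change of 2.65 ± 0.60, and Coro1a gave 964 and 743, a change of 2.08 ± 0.40. Both AAT arrays of these 3 genes lay above both NOR arrays. Ccr2 (2.12), Clec10a (1.65), Mpeg1 (1.64), Ctss (1.49), C1qb (1.30), Mrc1 (1.25), Laptm5 (1.18) and Lgals3 (1.16, galectin 3) also rose. The actin ratio was 5.87 and 9.08 in AAT and 3.63 and 4.30 in NOR, without overlap. With it as a covariate 5 of the 12 changes passed, and the rises of Ccr2, Clec10a, Mpeg1, C1qb, Mrc1 and Laptm5 did not.

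Siglec1, the sialoadhesin of sinus and marginal zone macrophages, fell by 2.57 ± 1.15 in AAT fat from 505 and 174 in NOR to 32.4 and 64.4, and did not pass without NOR 1 (-1.90) or AAT 1 (-2.25), as the mean over its probe sets (-0.52) or with the actin ratio as a covariate (-0.95). Limma called no member at the adjusted p in AAT vs NOR (0% of probe sets; smallest adjusted p 0.908; 12 members at an unadjusted p under 0.05). With 1 array left out at a time, the median of the members ran from 0.33 to 0.59. Without NOR 1, Ccr2 (0.58), C1qb (0.78), Laptm5 (0.90), Mpeg1 (1.03), Mrc1 (1.23) and Clec10a (1.35) did not pass. Without AAT 1, Clec10a (0.42), Mrc1 (0.62), Laptm5 (0.66), C1qb (0.91) and Ccr2 (1.99) did not, nor Ccr2 (2.19) and Lgals3 (0.85) without AAT 2, Mrc1 (1.35) and Lgals3 (1.18) without NOR 2, or Mrc1 (1.25) without PM 3.

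In PM fat 5 members rose against NOR and 1 fell, where 2.31% of all probe sets rose and 0.808% fell. Ly86 gave 527, 629 and 507, a change of 2.66 ± 0.51, Ccr2 gave 325, 632 and 461, a change of 2.49 ± 0.77, and C1qc gave 827, 890 and 897, a change of 2.15 ± 0.55. Coro1a (1.76 ± 0.37) and C1qb (1.07 ± 0.40) rose too, and in all 5 every PM array was above both NOR arrays. Cd163 fell by 2.83 ± 1.11 from 543 and 522. The median of the members was 0.42, and all PM arrays were above both NOR arrays in 10 members and below in 1, against 8.68% and 6.56% of probe sets. Limma called none at the adjusted p (0% of probe sets; smallest adjusted p 1.00; 8 at an unadjusted p under 0.05), and Ccr2 (0.96) and C1qb (0.56) did not pass without NOR 1, nor C1qb (0.91) without PM 1. Cd163 did not pass without NOR 1 (-2.89), NOR 2 (-2.71), PM 2 (-2.58) or PM 3 (-2.60), nor without the trend in the variance prior (-2.83).

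Read gene by gene over the 4 groups of fat, DIA had the highest mean log2 signal in 21 of the 40 members, PM in 10, AAT in 5 and NOR in 4, and NOR had the lowest in 24. The order of the groups was not counted over all probe sets, so these counts have no share to be read against. The 11 members raised in DIA took different courses. Laptm5, with DIA highest, AAT and PM between and NOR lowest, kept the DIA arrays clear of every other array. Ly86, at 507 to 704 in treated fat, Ccr2, at 307 to 632, and C1qc, at 827 to 1241, lay above both NOR arrays under both treatments, and the difference from DIA passed in neither. Mpeg1 was level between DIA and AAT (0.03 ± 0.48), at 845 and 828 in AAT. The comparisons of a treatment with NOR and of DIA with NOR share the NOR arrays, and those with DIA share the DIA arrays.

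Other genes of macrophage biology were read in 5 lists. In DIA vs NOR 2 of 12 monocyte-attracting chemokines rose, Ccl9 (1.50) and Ccl5 (2.36), with a list median of -0.06. The receptor Csf3r (2.14) was the single gene past the thresholds among 13 growth and lineage factors. Of 15 lysosome and lipid genes the growth factor precursor Grn rose (1.88) and the tetraspanin Cd9 fell (-1.54), and of 15 efferocytosis and pattern receptors Stab1 (3.37) and the bridging ligand Gas6 (1.26) rose. None of 16 macrophage cytokines and polarization genes passed, and no gene of the 5 lists was called at the adjusted p by limma in any fat comparison.

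Under treatment few genes of these lists passed. In AAT vs DIA Cd9 rose (1.97) and Chil3, a chitinase-like marker of alternatively activated mouse macrophages, fell (-4.48). In PM vs DIA Cxcl1 (0.95) and Cebpb (0.86) rose, and Gas6 (-1.86), Grn (-1.94) and Lamp2 (-1.65) fell. In AAT vs NOR Ccl5 (3.19), Ccl9 (1.37) and Gas6 (1.34) rose and Ccl3 (-2.56) and Chil3 (-2.49) fell. In PM vs NOR Ccl5 (3.61), Il1rn (2.32), Csf3r (2.14) and Cebpb (1.15) rose and Cd9 (-1.05) fell.

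In PLNs the same contrast of DIA with NOR gave no common direction. Among the 40 members 1 rose and 3 fell, where 2.66% of all probe sets rose and 7.15% fell, the median was 0.14, and 21 lay above the median of all probe sets. Cd163 gave 705, 637, 345 and 405 in NOR and 65.1 and 190 in DIA, a change of -2.06 ± 0.61. Itgax, the CD11c chain of dendritic cells and some macrophages, gave 655, 701, 808 and 661 in NOR and 124 and 347 in DIA, a change of -1.65 ± 0.59. In both genes the DIA arrays lay below all 4 NOR arrays.

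Mpeg1 fell by 0.96 ± 0.41, from 10269, 7056, 9734 and 10590 to 3191 and 6093. Ncf1, the p47phox subunit of the phagocyte oxidase, rose by 1.45 ± 0.60, but its DIA arrays of 1805 and 5231 overlapped NOR, at 709, 1981, 1911 and 817. All DIA arrays were above all NOR arrays in 8 members and below in 8, against 8.99% and 14.1% of probe sets. Limma called no member (smallest adjusted p 0.205, with 4 at an unadjusted p under 0.05) and 0.0111% of probe sets up and 0.0444% down. A rank product test passed 4 members, of which 2 were the same. It passed 2696 of all 45037 probe sets upwards and 3329 downwards. The 3 falls did not pass without DIA 1 (Cd163 -1.10, Itgax -0.71, Mpeg1 -0.31), and Ncf1 did not without DIA 2 (0.35), NOR 1 (1.13) or NOR 4 (1.22). The number past the thresholds was 1 without DIA 1 and 7 without AAT 1, which enters through the shared spread.

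Markers of other cells moved in the same contrast of PLNs. Matrix markers fell in 4 of 8 genes, from a summed signal of 12057 to 18013 in NOR to 6046 to 10294 in DIA, and endothelial markers in 2 of 8, from 2227 to 3517 to 1940 to 2692. Of 6 acinar markers 1 rose, with sums of 185 to 1051 in NOR and 673 to 6190 in DIA, as did 1 of 8 neutrophil markers, with sums of 792 to 2186 and 1462 to 6142, and 1 of 7 B cell markers, with sums of 14941 to 19679 and 17182 to 43118, while 1 of 7 dendritic cell markers fell. The 3' to 5' ratio of Gapdh was 5.55 to 8.01 in NOR and 10.02 to 10.8 in DIA, without overlap. That of actin overlapped, at 0.94 to 2.31 in NOR and 0.88 to 1.10 in DIA. The part of these markers and ratios in the result on the members was not tested.

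**Figure D3:**
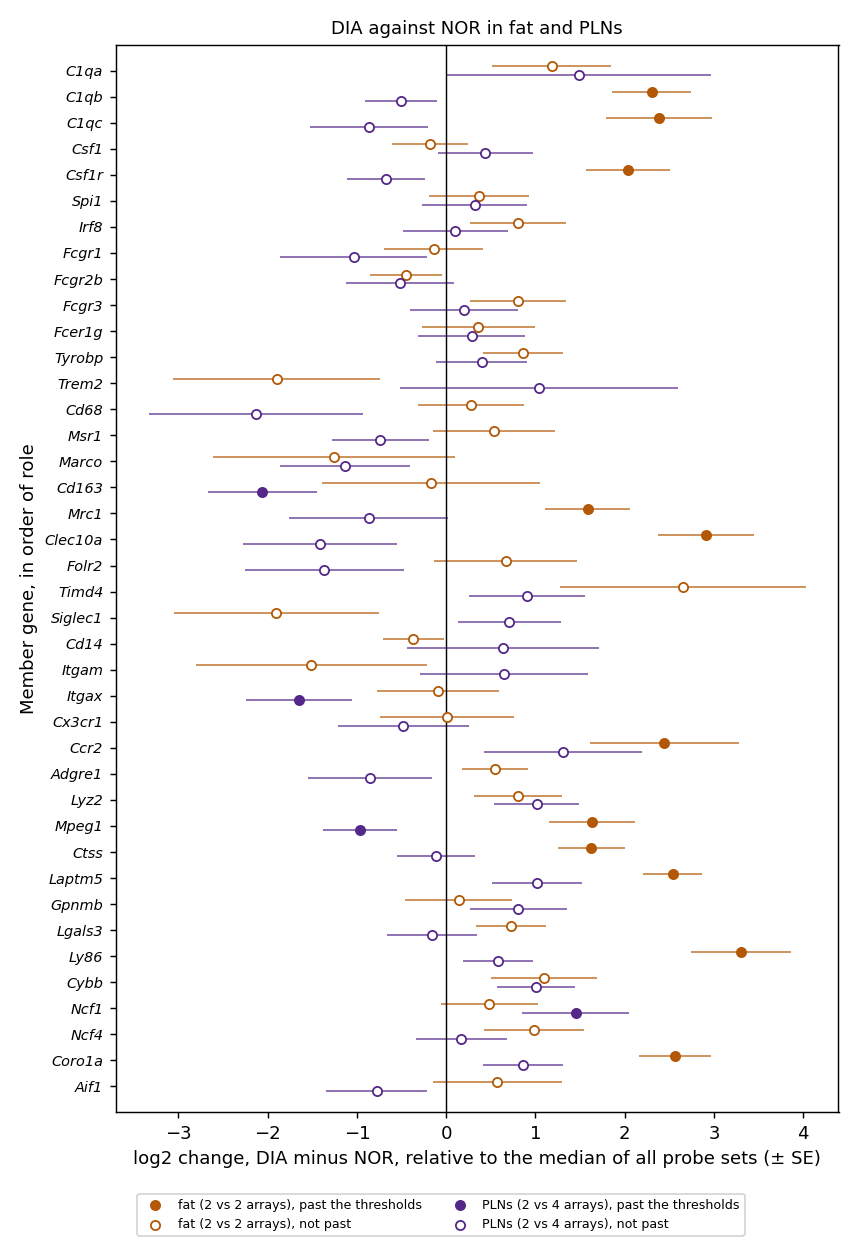
Log2 change of each member, DIA minus NOR, relative to the median of all probe sets, with its SE, in fat (orange) and PLNs (purple); filled points passed the thresholds of the study. In fat 11 points are filled and all lie to the right of 0, and in PLNs 1 filled point lies to the right and 3 to the left.

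Whether the tissues differed in this contrast was tested by the interaction term of a model of all 19 arrays. It passed the same thresholds, all in the direction of a larger change in fat, for 10 members (5.65% of all probe sets passed in that direction and 3.23% in the other). Clec10a differed by 4.24 ± 1.13, with a change of 2.91 in fat and -1.41 in PLNs. Csf1r differed by 2.62 ± 0.67, with 2.04 and -0.67, and Mpeg1 by 2.51 ± 0.63, with 1.63 and -0.96. These genes had opposite signs in the 2 tissues, and so did C1qb (2.72 ± 0.60) and C1qc (3.16 ± 1.02). Among them only Mpeg1 passed in PLNs, so for the others the PLN value gives a sign and not a fall. Ly86 (2.63 ± 0.66), Laptm5 (1.43 ± 0.61) and Coro1a (1.61 ± 0.60) were above 0 in both, and Ctss (1.65 ± 0.60) was at -0.11 in PLNs. For Ccr2 (3.41 ± 1.22) the term was fitted on the probe set chosen in fat, which gave 2.44 in fat and -1.06 ± 0.86 in PLNs, where the probe set with the highest signal gave 1.31 ± 0.89; on that other probe set the term was -1.67 ± 1.91 and did not pass.

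No member reached an adjusted p under 0.05 for the interaction by limma, where 0.00444% of probe sets did in that direction; the smallest was 0.178, for C1qb, and 10 members had an unadjusted p under 0.05. Of the 5 other lists, Stab1 (4.99) and Tlr4 (2.41) differed upwards in fat, and Cd9 (-2.28) and Cx3cl1 (-3.99) downwards. The median difference over the 40 members was 0.92. It was 0.48 without PLN DIA 1, 1.36 without PLN DIA 2 and 0.54 without fat DIA 2. Ccr2 did not pass without fat NOR 1 (1.86) or fat DIA 2 (2.69), Ctss without PLN DIA 1 (0.77) or fat DIA 2 (1.07), Laptm5 without fat NOR 1 (1.13) or PLN DIA 2 (1.60), and Coro1a without fat DIA 2 (1.23). Adjusted calls of this term are not given for fits that leave a group with 1 array.

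Other measures differed in the same term. Of 8 matrix markers 4, and of 8 endothelial markers 1, passed in the direction of fat, and 2 of 7 B cell, 2 of 6 erythroid and platelet and 1 of 6 acinar markers in the other. The actin ratio, at 15.2 and 15.5 on the DIA arrays of fat, enters this contrast as well. So does the 3' to 5' ratio of Gapdh, at 2.46 and 4.63 on those arrays against 0.91 and 0.95 in NOR fat. In PLNs the Gapdh ratio was 10.02 and 10.8 in DIA against 5.55 to 8.01 in NOR. The part of these in the difference between the tissues was not tested.

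Under AAT, 8 of the 40 members rose in PLNs against DIA and none fell, where 4.83% of all probe sets rose and 11.7% fell: Cd163, Csf1r, the scavenger receptor Marco, Mrc1, C1qc, C1qb, Lgals3 and Mpeg1. Of these Csf1r was called at the adjusted p by limma (0.0363; 0.0777% of probe sets were called up and 0.0222% down). The median of the members was 0.71 relative to all probe sets and 0.13 as measured, and 0.22 after quantile normalization. All AAT arrays were above both DIA arrays in 7 members and below in 1, against 5.3% and 14.2% of probe sets.

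Csf1r gave 3008 and 6870 in DIA and 22688, 20144, 34368 and 27022 under AAT, against 6855, 7497, 6195 and 11751 in NOR. Its change from DIA was 3.07 ± 0.44, or 5.62-fold as measured, and every AAT array lay above every DIA and NOR array. Cd163 gave 431, 969, 1138 and 949 under AAT, a change of 3.46 ± 0.61 from DIA (adjusted p 0.0740), and overlapped NOR. C1qb gave 4819 and 7919 in DIA and 13928, 19987, 19459 and 24868 under AAT, a change of 2.22 ± 0.41 (adjusted p 0.0989 by limma). The rise of C1qb did not pass after quantile normalization or as the mean over its 3 probe sets.

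Mpeg1 gave 6924, 11043, 10691 and 11797 under AAT, all above DIA, and changed by 1.75 ± 0.41. Lgals3 gave 737 and 847 in DIA and 1054, 3959, 1476 and 1676 under AAT, a change of 1.76 ± 0.51. In the other 3 raised members AAT 1 stayed among the DIA arrays or below them. C1qc gave 400 and 902 in DIA and 778, 4824, 4444 and 1155 under AAT (2.38 ± 0.66), Marco 1560 and 753 against 1174, 17330, 5796 and 5510 (2.80 ± 0.73), and Mrc1 439 and 149 against 115, 2423, 1258 and 2613 (2.52 ± 0.89).

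**Figure D4:**
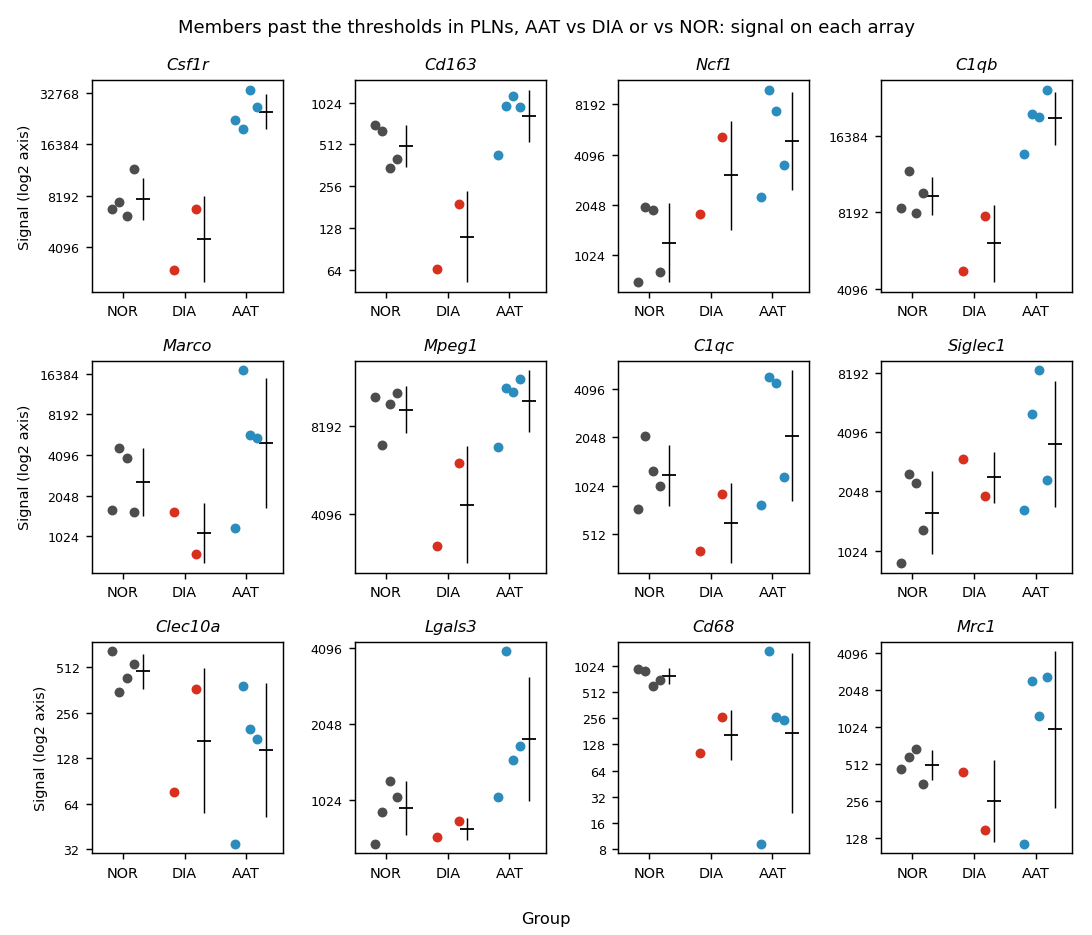
Signal (linear intensity on a log2 axis) in PLNs of the 12 members that passed the thresholds in AAT vs DIA or AAT vs NOR; points are arrays, and the black bar is the mean of the log2 signals with its SD. Csf1r and C1qb are the panels in which all 4 AAT arrays lie above all NOR and DIA arrays, and AAT 1 is the lowest AAT array in 11 of the 12 panels.

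Against NOR, 4 members rose in AAT PLNs and 2 fell, where 3.36% of all probe sets rose and 20% fell. Csf1r changed by 2.43 ± 0.36 (adjusted p 0.0203) and Ncf1 by 2.75 ± 0.49 (adjusted p 0.0320), and limma called these 2 members and 1.1% of probe sets up and 2.64% down. Ncf1 gave 2272, 10026, 7450 and 3527 under AAT, all above the 4 NOR arrays. C1qb (1.74 ± 0.33) and Siglec1 (1.88 ± 0.47) rose without an adjusted call, and neither passed after quantile normalization or as the mean over the probe sets of the gene. Cd68, the lysosomal macrosialin, gave 951, 886, 607 and 703 in NOR and 9.23, 1503, 263 and 242 under AAT and fell by 1.44 ± 0.98, and Clec10a, at 656, 351, 434 and 538 in NOR and 34.6, 384, 200 and 171 under AAT, fell by 1.00 ± 0.70.

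The 2 falls rested on AAT 1: without it Cd68 changed by 0.06 and Clec10a by -0.22. The median of the 40 members was 0.95 relative to all probe sets, 0.23 as measured and 0.28 after quantile normalization, and all AAT arrays were above all NOR arrays in 4 members and below in 1, against 3.54% and 11.8% of probe sets. After quantile normalization 2 members passed in AAT vs NOR, of which 1 was among the 6, and no member was called at the adjusted p in either comparison of AAT. Of the other probe sets of Csf1r, the changes were 1.22 and -0.83 from DIA and 0.67 and 0.89 from NOR, and neither passed; of those of Ncf1, from NOR, 1 was 2.03 and passed and the other was -0.81 and fell past the thresholds as measured.

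The adjusted calls in PLNs depended on which arrays entered. Against DIA no member was called without NOR 1, NOR 2, NOR 3, AAT 3 or AAT 4, and 4 were called without AAT 1. Of all 45037 probe sets, 2 were called up and 0 down without NOR 1, and 83 and 99 without AAT 1. Against NOR the number was 0 without NOR 1, NOR 2 or NOR 3, 1 without NOR 4, AAT 3 or AAT 4 and 7 without AAT 1. There 54 probe sets were called up and 30 down without NOR 1, and 633 and 4103 without AAT 1. Csf1r passed the thresholds of the study in both comparisons with each NOR or AAT array left out in turn. Its changes with any array left out were 2.20 to 4.05 from DIA and 2.29 to 2.59 from NOR. As the mean over its probe sets Csf1r passed in neither comparison. After quantile normalization it did not pass against NOR. Without DIA 1, 5 members passed against DIA and the median was 0.38; C1qc (1.52), Mpeg1 (1.00) and Lgals3 (1.38) did not. Without DIA 2 the median was 1.32, and Marco (2.66), Mrc1 (2.12) and Lgals3 (2.25) did not pass.

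Against NOR, 3 members passed without NOR 1 and 10 without AAT 1. Mrc1 did not pass against DIA without AAT 2 (2.00), AAT 3 (2.41) or AAT 4 (1.94), nor Lgals3 without AAT 2 (1.30). C1qb against NOR did not pass without NOR 1 (1.62), NOR 3 (1.73), AAT 2 (1.63) or AAT 4 (1.52), nor Siglec1 without NOR 1 (1.53), NOR 4 (1.76), AAT 2 (1.64) or AAT 3 (1.48).

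Markers of other cells and measures of quality differed in AAT PLNs too. Of 6 adipocyte markers measured, 2 rose against DIA and 1 against NOR, and their summed signal was 2878 to 5347 in NOR, 2284 to 4558 in DIA and 7847 to 28122 in AAT. Most of it was Fabp4, a fatty acid binding protein of adipocytes and macrophages, at 2541 to 4612 in NOR, 1977 to 2972 in DIA and 6976 to 26983 in AAT, while Adipoq lay at 61.9 to 249 in NOR and 46.2 to 1570 in AAT. Matrix markers, of which 4 of 8 rose against DIA and 2 against NOR, summed to 12057 to 18013 in NOR, 6046 to 10294 in DIA and 6426 to 37638 in AAT. The 3' to 5' ratio of Gapdh was 5.55 to 8.01 in NOR, 10.02 to 10.8 in DIA and 7.43 to 24.97 in AAT, and the median signal of an array was 179 to 265, 152 to 279 and 92.3 to 178. Of 6 acinar markers 2 rose against NOR, with sums of 163 to 102870 in AAT, and of 8 neutrophil markers 2 fell against DIA and 3 against NOR, with sums of 737 to 2612. The part of these in the macrophage result was not tested.

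Most other members gave no call in PLNs. Spi1 changed by 0.32, 0.69 and 1.04 and Irf8 by 0.10, -0.10 and 0.03 across the PLN comparisons of DIA with NOR, AAT with DIA, and AAT with NOR. Tyrobp, the DAP12 adaptor, gave 2100 to 4035 in NOR, 3241 and 3715 in DIA and 2223, 10880, 6557 and 4235 under AAT, so AAT 1 lay within NOR and the 3 others above it, and 1.56 ± 0.42 did not pass. Fcgr1, Fcgr2b, Fcgr3, Fcer1g and Trem2 did not pass in any PLN comparison, nor did Csf1, C1qa, Msr1, Folr2, Timd4, Cd14, Itgam, Cx3cr1, Ccr2, Adgre1, Lyz2, Ctss, Gpnmb, Ly86, Cybb, Ncf4 and Aif1.

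Laptm5, at 35520 to 69540 in NOR, 106925 and 87474 in DIA and 62670 to 156579 in AAT, and Coro1a, at 8493 to 20358, 20417 and 24887, and 17461 to 32759, are also made by lymphocytes, the main cells of a node. Laptm5 had an unadjusted p of 0.0257 and Coro1a of 0.0250 in AAT vs NOR, with a fold change as measured under 2. Over the 3 groups AAT had the highest mean log2 signal in 19 members, DIA in 12 and NOR in 9, an order that was not counted over all probe sets.

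**Figure D5:**
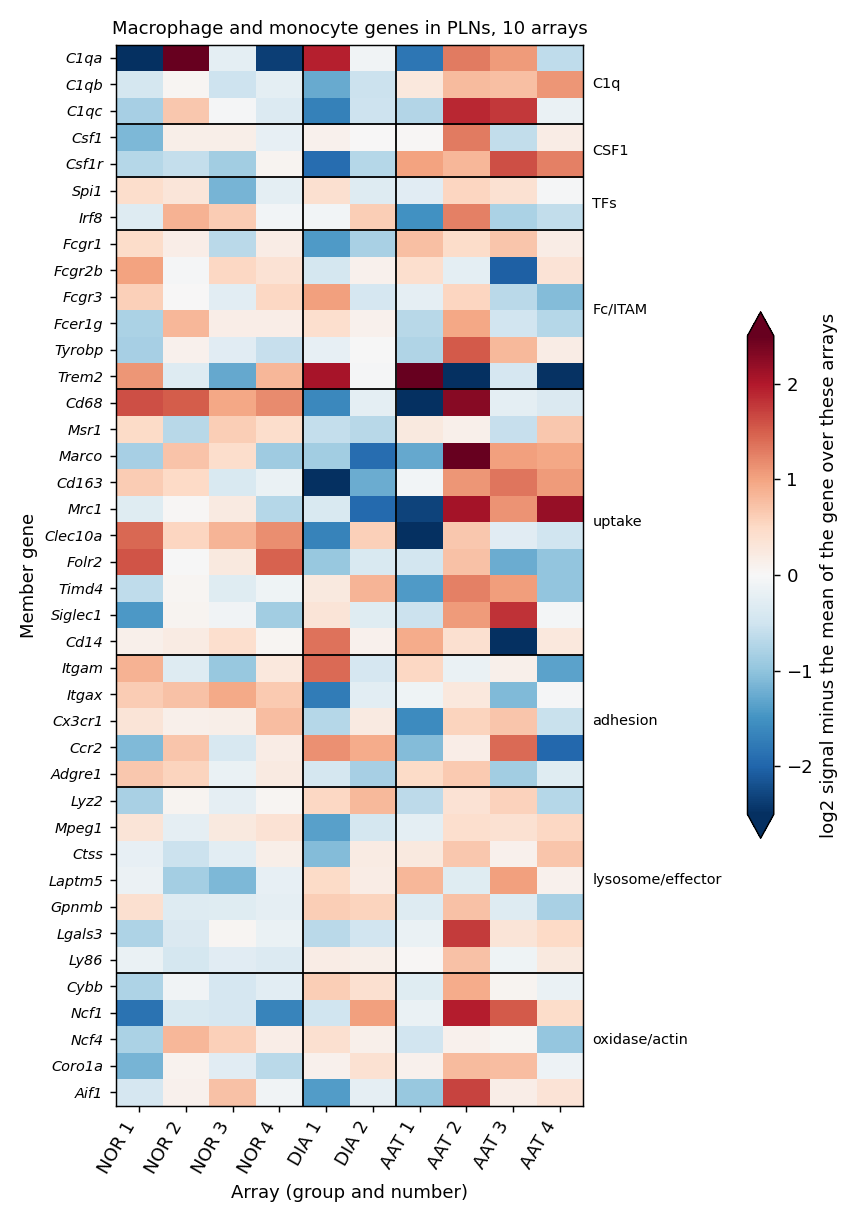
Log2 signal of the 40 members on the 10 PLN arrays, each row minus its mean, with rows grouped by role and columns by group. The rows of Csf1r and C1qb are above their mean on all 4 AAT arrays, Cd163 is lowest on DIA 1, and AAT 1 and AAT 2 differ in most rows of the uptake group.

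Of the 5 lists of other macrophage genes, 2 of 15 lysosome and lipid genes rose in PLNs under AAT, against DIA and against NOR. Lpl, the lipoprotein lipase of adipocytes and macrophages, rose by 4.60 against DIA (adjusted p 0.0385) and by 3.25 against NOR (0.0287), and Lamp2, a lysosomal membrane protein, by 2.61 and 2.42 (0.0279 against NOR). The list medians, relative to all probe sets, were 1.03 and 1.17, where the median of all probe sets was -0.58 and -0.72 as measured. Among 13 growth and lineage factors Cebpb rose by 2.39 against DIA and by 2.39 against NOR (adjusted p 0.0224), Csf2rb rose by 1.60 against DIA, and Csf2ra fell by 1.56 against NOR. Csf2ra, the alpha chain of the GM-CSF receptor, was the 1 of the 13 to pass in DIA vs NOR, where it fell by 3.06.

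Of the 16 cytokines and polarization genes Nos2 (-3.32) and Il1rn (-1.13) fell against DIA, and Tnf (-1.94), Mgl2 (-2.91) and Tgfb1 (-0.57) against NOR. In DIA vs NOR Tnf (-1.98) was the single one to pass, and fell. Of the 15 efferocytosis and pattern receptors Stab1 (-1.71) and Tlr4 (-1.53) fell and Clec7a (1.45) rose in DIA vs NOR, Clec4n (3.52) rose in AAT vs DIA and Vsig4 (-2.26) fell in AAT vs NOR. Of the 12 chemokines Ccl6 (1.77) rose in AAT vs NOR, and none passed in the other PLN comparisons.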

How the data were processed

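The authors made the deposited intensity values with MAS5, named in the submitters' processing notes without a version, and scaled each array; the study's methods name RMA, and these values are not RMA. Every column entered. A floor of 1 was set before log2 of the deposited signals was taken, with nothing else normalized. Of 45037 probe sets tested (64 control probe sets left out), 34945 name 1 gene, 932 several and 9160 none; 34754 were named through Entrez identifiers from the platform annotation. Log2 signals of arrays of 1 group correlated at 0.789 to 0.866 in fat and 0.705 to 0.890 in PLNs.

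Each tissue had its own limma (3.58.1, R 4.3.3) model of group means with eBayes and a variance trend; the interaction took all 19 arrays together. P-values were adjusted over all probe sets by Benjamini and Hochberg and called under 0.05. The fit was run on simulated data with independent noise and known shifts, as a check of the code. Those data held no differences in RNA integrity and no effects shared within an array. Alternatives tried were models restricted to the groups of a comparison, the replicate number as a block, a filter at the 40th percentile of mean signal, quantile normalization, an offset of 32 before log2, eBayes without its trend, averaging a gene's probe sets, a covariate for fat (log2 of the actin 3' to 5' ratio), rank product with 100 permutations for DIA vs NOR, and each array left out.

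The members, lists, tests and alternatives were chosen with earlier results of these data known. Full values are given for up to 10 members per comparison with the smallest p among those past the thresholds, and for the member with the highest mean signal of each role group; genes of the 5 lists are named where they pass, up to 3 per list and comparison. Values of further members were added for completeness. The number of arrays, 2 to 4 per group, limits the precision.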

Additional observations from a re-analysis of the deposited data

Results flagged for a closer look

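Among 80 sets of 4 PLN arrays tested (40 members in NOR and in AAT), 4 held an array far from the other 3 by Dixon's ratio, with a critical value of 0.829 that chance passes in about 1 in 20 sets. Fcer1g, the common gamma chain of Fc receptors, stood at 1000 on AAT 2 against 312 to 363 on the other AAT arrays (ratio 0.87). Cd14, the coreceptor for endotoxin, stood at 10.1 on AAT 3 against 174 to 279 (0.858). Msr1, the class A scavenger receptor, stood at 345 on NOR 2 against 753 to 854 (0.861), and Gpnmb, a glycoprotein of lipid-laden macrophages, at 665 on NOR 1 against 404 to 428 (0.882). None of these 4 genes passed in a PLN comparison, and groups of 2 or 3 arrays were not tested in this way.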

How the results depend on the processing

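With a replicate block, the count past the thresholds was 11 of 40 in fat DIA vs NOR, 2 under AAT and 5 under PM against DIA, and the adjusted call of Csf1r in PLNs AAT vs DIA was lost (0 members). Over all probe sets the block moved the adjusted calls of PLNs AAT vs NOR from 496 up and 1190 down to 883 and 3923. Same-numbered arrays deviated with correlations of -0.261 to 0.291 in fat and -0.041 to 0.281 in PLNs, where pairs of replicates 1 and 2 gave 0.173 to 0.281 and those of replicates 3 and 4 -0.041 and 0.0052. Not every pair was above 0.1, PLN NOR 3 correlated best with DIA 2 (0.275), the labels name no shared mouse or day, and the PLN values are a hint from the data and not from the design. Without the trend, 1 member passed in fat AAT vs DIA, 7 in AAT vs NOR, 2 in PLNs DIA vs NOR and 5 in AAT vs DIA, and none was called at the adjusted p in PLNs (0). With the mean over probe sets, 7 passed in fat AAT vs NOR, 5 in PLNs AAT vs DIA, 1 in AAT vs NOR and 6 in the interaction, with 0 adjusted calls in PLNs, and Laptm5 reversed in fat AAT vs NOR (-0.15) and in the interaction (-0.032). Fitting only the groups compared gave 7 members in PLNs DIA vs NOR and 0 adjusted calls in AAT vs DIA. Quantile normalization gave medians of 0.22 and 0.28 in PLNs AAT vs DIA and vs NOR, 2 members past the thresholds against NOR, 0 adjusted calls in both and 1 in the interaction. With the actin ratio, 7 members passed in fat AAT vs NOR, 5 of the 12 among them. In DIA vs NOR Csf1r (-1.37), Mrc1 (-0.21) and Mpeg1 (-0.81) reversed, and in AAT vs DIA Clec10a (0.23) did. In PM vs DIA C1qb (0.025), Csf1r (1.24), Mrc1 (0.27) and Clec10a (0.21) reversed. The median SE over all probe sets was larger in these fits, at 1.74 against 0.78 in DIA vs NOR. The cause of these shifts was not tested.

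Leaving out 1 array at a time gave 0 to 1 adjusted calls and medians of 0.36 to 1.25 in fat DIA vs NOR, 1 to 6 members and medians of -0.68 to 0.14 in AAT vs DIA, 5 to 11 and -0.77 to 0.014 in PM vs DIA, and 6 to 14 members with 0 to 1 adjusted calls in AAT vs NOR. In PLNs it gave 1 to 7 members and medians of -0.23 to 0.27 in DIA vs NOR, 5 to 10 members, 0 to 4 adjusted calls and 0.38 to 1.32 in AAT vs DIA, and 3 to 10 members and 0 to 7 adjusted calls in AAT vs NOR, where Cd68 ran from -2.57 to 0.057 and reversed without AAT 1. The median of the interaction ran from 0.48 to 1.36. Of the calls on single members, 416 held, 95 did not pass and 10 reversed under the other alternatives, and 634 held, 86 did not pass and 1 reversed with an array left out. Where an arm is left with 1 array, that array is assumed to vary like the other groups. Dim probe sets, and 2 arrays in most fat groups, limit what could be detected.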
